A study of Homo sapiens with 4 samples.

Results

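Genes of the proteasome and of the heat shock chaperones were measured in Lu139 and NCI-H209, both established lines of human small cell lung cancer, after siRNA against TTF-1. Members were taken from the array's platform annotation by symbol: PSMA1 to PSMA7, PSMB1 to PSMB7, PSMC1 to PSMC6, PSMD1 to PSMD14, PSME1 to PSME4, and 16 genes of heat shock proteins, their J-domain and BAG partners and the heat shock factors. Of these 54 genes, 47 had at least 1 probe set annotated with that symbol alone, which gave 100 of the 54675 probe sets on the array. They were 65 probe sets of 33 proteasome genes and 35 probe sets of 14 chaperone genes. PSMA6, PSME2 and HSPA8 were annotated only together with other symbols, and PSMC5, PSMD7, PSMD13 and HSF2 were not analysed here.

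Each line was electroporated with siRNA against TTF-1 (siTTF-1) or with control siRNA (siNTC), and each of the 4 combinations was read on 1 Affymetrix array of biotin-labelled cRNA. TTF-1 is the homeodomain transcription factor encoded by NKX2-1. Both siRNA groups of a line were electroporated, so they share that treatment, and no array of untreated cells was analysed here. Because a line has 1 array per siRNA, only the agreement of the 2 lines shows how far the siRNA effect repeats, and the number of arrays limits precision.

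The 26S proteasome is the protease that degrades proteins tagged with ubiquitin. Its barrel-shaped 20S core is built of alpha rings, which form the gate, and beta rings, which carry the proteolytic sites. The 19S cap sits on the core and consists of a base, with a ring of ATPases that unfold the substrate, and a lid, which removes ubiquitin. Heat shock chaperones fold or hold proteins, and they hand clients that cannot be folded to the proteasome. Heat shock factor 1, encoded by HSF1, is the main activator of the inducible chaperone genes and binds repeats of GAA in their promoters.

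Sequences upstream of the transcription start are shown for the members with the highest and the lowest mean change after siTTF-1 in each class, so that regulatory letters stand beside the values. They are from RefSeq (GRCh38.p14), which held a promoter window for 41 of the 47 genes, with several start sites for some (52 windows). Each run is the 250 bases before a start, 5′ to 3′ on the gene's strand. Capitals in the first pair mark GAANNTTC or TTCNNGAA, a pair of heat shock units facing each other. Capitals in the second pair mark CCAAT, on either strand. HSPB1 lies at chr7:76302423-76302672 (plus strand), DNAJB6 at chr7:157336754-157337003 (plus strand), PSMA2 at chr7:42932175-42932424 (minus strand) and PSMA4, at the first of its listed starts, at chr15:78540155-78540404 (plus strand).
HSPB1: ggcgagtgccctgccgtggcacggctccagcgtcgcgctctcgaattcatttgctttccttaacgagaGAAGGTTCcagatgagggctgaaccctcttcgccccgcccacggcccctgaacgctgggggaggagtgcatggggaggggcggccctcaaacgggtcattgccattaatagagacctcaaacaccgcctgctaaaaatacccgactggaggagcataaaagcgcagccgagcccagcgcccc
DNAJB6: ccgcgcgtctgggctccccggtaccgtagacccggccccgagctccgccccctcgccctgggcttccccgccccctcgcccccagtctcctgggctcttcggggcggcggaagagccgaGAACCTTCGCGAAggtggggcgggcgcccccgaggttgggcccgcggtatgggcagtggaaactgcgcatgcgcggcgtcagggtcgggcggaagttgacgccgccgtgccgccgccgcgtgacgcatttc
PSMA2: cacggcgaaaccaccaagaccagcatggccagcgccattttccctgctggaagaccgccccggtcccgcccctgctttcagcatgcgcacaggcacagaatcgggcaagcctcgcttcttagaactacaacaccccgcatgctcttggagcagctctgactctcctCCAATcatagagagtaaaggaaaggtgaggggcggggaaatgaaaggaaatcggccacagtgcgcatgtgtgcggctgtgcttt
PSMA4: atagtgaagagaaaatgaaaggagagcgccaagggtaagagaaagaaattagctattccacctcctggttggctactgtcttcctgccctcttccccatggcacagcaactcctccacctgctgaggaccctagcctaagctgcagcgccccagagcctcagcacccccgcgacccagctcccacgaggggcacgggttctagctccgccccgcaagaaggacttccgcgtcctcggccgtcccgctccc

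The window of HSPB1 held 1 such pair of heat shock units, beginning at -182 from the start. The PSMA2 window held 1 CCAAT. The PSMA4 window shown held none, while that of another listed start of PSMA4 held 1 CCAAT and 1 antioxidant element. The DNAJB6 window held 2 overlapping pairs of heat shock units, which together make a run of 3 alternating units. Among chaperone windows, 8 of 20 held a pair (40%), against 3 of 32 proteasome windows (9.38%) and 11.6% of all 35116 windows in the table. A run of 3 alternating units was found in 4 of 20 chaperone windows (20%), 0 of 32 proteasome windows and 0.441% of all windows. The reverse held for CCAAT, with 4 of 20 chaperone windows (20%), 14 of 32 proteasome windows (43.8%) and 32.0% of all. Those chaperone windows came from only DNAJB1, at every listed start, and HSP90AA1. The antioxidant element TGACNNNGC, to which NFE2L1 and NFE2L2 bind, was in 2 of 20 chaperone windows, 8 of 32 proteasome windows (25%) and 10.9% of all. CAAGTG, the core letters of sites for NK2 homeodomain factors such as TTF-1, were in 0 of 20 chaperone windows, 2 of 32 proteasome windows (6.25%) and 9.50% of all. The 2 proteasome windows were those of PSMB2 and PSME3. All motifs were searched on both strands. Windows of 1 gene were counted separately and can overlap.

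HSPD1 and HSPE1, which encode the ring and the lid of the mitochondrial chaperonin, are transcribed away from each other. Between the first listed start of HSPD1 and the start of HSPE1 lie 104 bases. The stretch between these starts is shown because both genes share it, at chr2:197500275-197500378 on the plus strand.
HSPD1-HSPE1: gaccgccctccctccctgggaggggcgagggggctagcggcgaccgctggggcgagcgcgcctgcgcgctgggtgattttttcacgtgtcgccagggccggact

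These 104 bases held no pair of heat shock units. A second listed start of HSPD1, further inside the gene, had 3 such pairs in its window. That window lies outside the 104 bases, but between the second start of HSPD1 and the start of HSPE1. Counted from the second start, the stretch between the 2 genes therefore does hold pairs.

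For NKX2-1 itself, the siTTF-1 arrays were the lower ones. Its brighter probe set was at 59.1% of control in Lu139 and 40.7% in NCI-H209, and the dimmer one at 55.3% and 64.6%. Of the neuroendocrine markers CHGA, SYP, NCAM1, INSM1, DLL3 and GRP, 6 of 6 lay above the expression limit (an intensity of 37.0) on every array. Of 8 measured markers of blood cells, fibroblasts and endothelium, 4 or 5 passed that limit on each array, none above 362. The 2 measured markers of blood cells differed. PTPRC was at 11.3 or below, while CD3E passed the limit on every array. CD3E read 79.2 and 63.7 on the siTTF-1 and siNTC arrays of Lu139, and 88.6 and 77.5 on those of NCI-H209. The summed intensity of these 8 was 755 on the siTTF-1 and 636 on the siNTC array of Lu139, against 725 and 655 in NCI-H209, so the siTTF-1 array was the higher one in each line. The part of these cell types in the results was not tested, and fewer cells of a type and less RNA per cell cannot be told apart. Median probe set intensities were 49.6 and 48.4 on the siTTF-1 and siNTC arrays of Lu139, and 57.7 and 56.6 on those of NCI-H209.

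Most members lay above the expression limit, which was set at the 40th percentile of all probe sets. Over the 4 arrays 91 of the 100 probe sets exceeded it, against 32746 of the array's 54675 (its 62 controls were left out). Of the 47 genes, each read by its brightest probe set, 46 exceeded it, against 14547 of all 19775 genes. These 46 also passed in each line separately. The gene that did not was BAG3, a co-chaperone that couples HSP70 to small heat shock proteins. It was at 16.1 after siTTF-1 and 15.5 in control Lu139 cells, against 31.3 and 30.6 in NCI-H209. Brightest probe sets of the proteasome genes read from 580 to 13519. Intensities of different probe sets are not compared with each other, and so genes are not ranked by level. Changes are given as siTTF-1 over siNTC, in log2 fold changes of the intensity plus a pseudocount of 18.7, and a pair of such values is that of Lu139 and that of NCI-H209.

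No member passed the test of the siRNA effect across the lines. In limma, fitted on all 14547 genes above the limit with line and siRNA as terms, 0 of 46 members had an adjusted p under 0.05, as did 0% of all genes. The smallest adjusted p of a member was 0.116. NKX2-1, the targeted gene, did not pass either, with a limma adjusted p of 0.0844. At an unadjusted p under 0.05, 3 of 46 members were higher, against 7.23% of all genes, and 2 were lower, against 9.25%. These shares are near the background. The 3 were HSPB1, PSMA2 and HSPA9, and the 2 were PSMA4 and DNAJB6. With 1.5-fold as the threshold inside a line, 0 of 46 members passed in Lu139, where 0.193% of genes were higher and 0.936% lower by that size. In NCI-H209, 1 member was higher, against 1.09% of all genes, and 1 was lower, against 3.52%. These were HSPB1 and DNAJB6.

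Small changes had the same sign in both lines for most members. Of the 46, 25 were higher in both lines, 12 were lower in both and 9 went opposite ways. Over all 13306 genes above the limit in both lines, 37.7% were higher in both and 27.5% lower in both. Among the proteasome genes, 20 of 33 were higher in both lines (60.6%) and 7 were lower in both. Their median log2 fold change was 0.039 in Lu139 and 0.073 in NCI-H209, against 0.034 and 0.0084 over all genes. Chaperone genes were divided, with 5 of 13 higher in both and 5 lower in both. Their medians were 0.041 in Lu139 and -0.017 in NCI-H209. After quantile normalization of either kind (all 4 arrays, or each line alone), 18 of 33 proteasome genes were higher in both lines (54.5%), against 42.1% of all genes. The proteasome median in Lu139 then lay below that of all genes, at 0.024 against 0.045 over the 4 arrays and 0.028 against 0.044 within the line, so its place above all genes as deposited depended on the scaling. The chaperone median in Lu139 turned to -0.0059 and -0.0071.

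**Figure D1:**
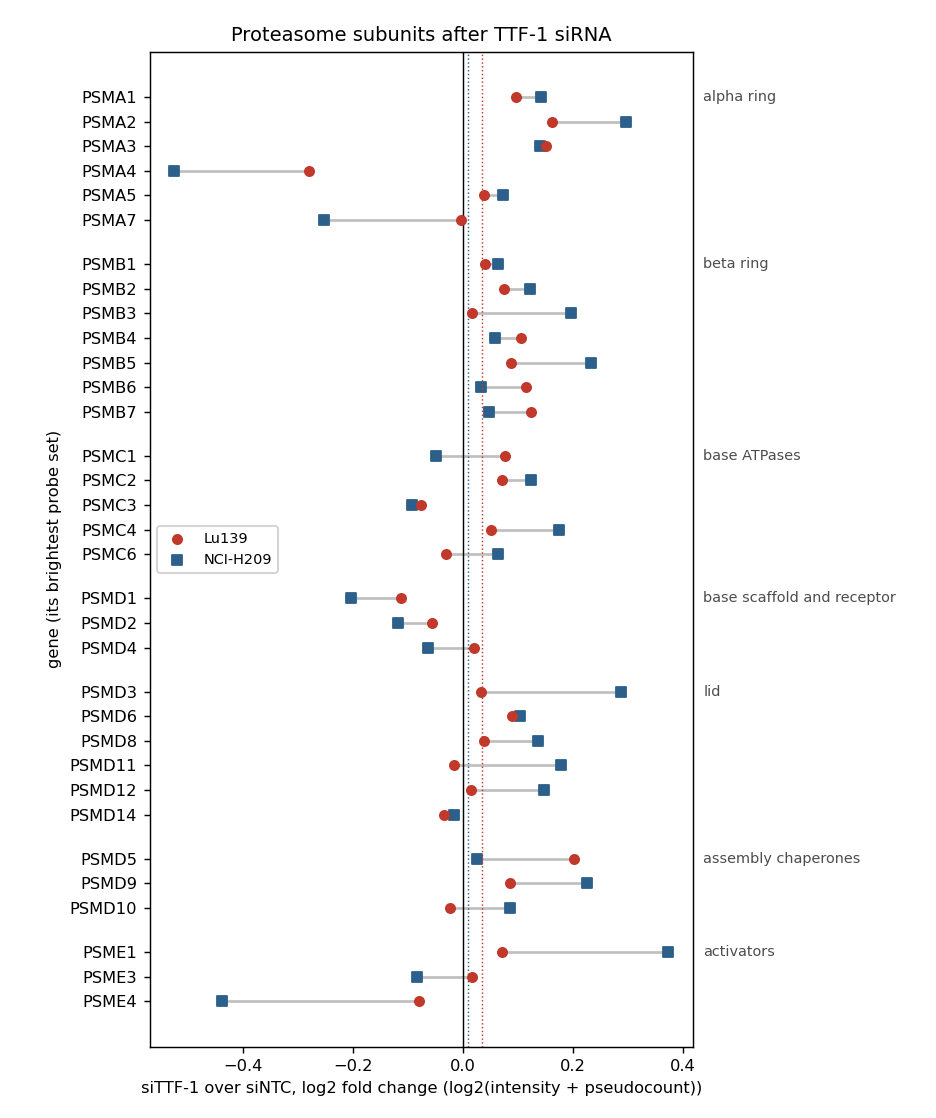
Log2 fold change of siTTF-1 over siNTC (horizontal axis) for the 33 proteasome genes, grouped by their place in the particle; red circles are Lu139, blue squares NCI-H209, 1 array per siRNA each, and dotted lines are the medians of all genes in each line. All 7 beta ring genes lie right of 0 in both lines, while PSMA4 lies at -0.28 and -0.53.

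Of the 13 genes of the 20S core, 11 were higher in both lines and 2 lower in both, against 37.7% and 27.5% of all genes. Either quantile normalization left 9 of the 13 higher in both lines, against 42.1% of all genes. The mean of all probe sets left 7 higher and 3 lower in both lines, against 38.5% and 28.2% of all genes. All 7 beta ring genes were higher in both lines, by 0.016 to 0.12 in Lu139 and 0.031 to 0.23 in NCI-H209. Either quantile normalization left 5 of the 7 higher in both lines, so the remainder depended on the scaling. The mean of all probe sets also gave 5 of 7.

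Among the proteolytic subunits, PSMB5 carries the chymotrypsin-like site. PSMB5 read 2527 after siTTF-1 and 2377 in control cells in Lu139, against 4111 and 3495 in NCI-H209. Its siTTF-1 value was the higher one in each line (0.09 and 0.23), with a limma adjusted p of 0.347. PSMB6, with the caspase-like site, had 0.11 and 0.03, and PSMB7, with the trypsin-like site, had 0.12 and 0.05. The other beta subunits carry no active site. They had 0.04 and 0.06 (PSMB1), 0.07 and 0.12 (PSMB2), 0.016 and 0.20 (PSMB3) and 0.10 and 0.06 (PSMB4). Dimmer probe sets above the limit did not all have the same signs. For PSMB2, 1 of 3 probe sets was lower in both lines (-0.06 and -0.12). For PSMB4, 1 of 3 had -0.27 and 0.08, and for PSMB1, 1 of 2 had -0.01 and 0.08.

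The alpha ring was uneven. PSMA2 read 3705 after siTTF-1 and 3311 in control Lu139 cells, against 6861 and 5586 in NCI-H209. It was higher in both lines, by 0.16 and 0.30 (mean 0.23, SD 0.09, n = 2 lines; limma interval 0.07 to 0.39, adjusted p = 0.2), on 2 of 2 probe sets in each. A further 2 probe sets annotated with PSMA2 and another symbol were lower in both lines, at -0.06 and -0.13 on one and -0.06 and -0.38 on the other. PSMA3 (0.15 and 0.14), PSMA1 (0.10 and 0.14) and PSMA5 (0.04 and 0.07) were on the same side. PSMA1 was higher on all 3 of its probe sets in both lines. PSMA5 was split between its 2 probe sets.

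PSMA4 went the other way. It read 3313 after siTTF-1 and 4030 in control Lu139 cells, 82.2% of control, and 4027 against 5805 in NCI-H209, 69.4% of control. Its log2 fold changes of -0.28 and -0.53 averaged -0.40 (SD 0.17, n = 2 lines), with a limma interval of -0.59 to -0.21 and an adjusted p of 0.116, the smallest of any member. PSMA4 was read by 1 probe set. PSMA7 had 99.7% of control in Lu139 and 83.8% in NCI-H209, where both its probe sets were lower. It read 8216 after siTTF-1 and 8241 in control Lu139 cells, against 3906 and 4663 in NCI-H209. The alpha subunits sit next to each other in 1 ring in equal numbers, and their transcripts here ranged from -0.28 to 0.16 in Lu139 and from -0.53 to 0.30 in NCI-H209. With the mean of all probe sets, 2 of 6 alpha ring genes were higher in both lines and 3 lower, against 38.5% and 28.2% of all genes.

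The 19S cap had no common direction: 6 of 14 genes were higher in both lines, 4 lower in both and 4 opposite. These shares were near the 37.7% higher and 27.5% lower of all genes. The base ATPases PSMC2 (0.07 and 0.12) and PSMC4 (0.05 and 0.17) were higher in both. Of the 3 probe sets of PSMC2, 1 was lower in NCI-H209 (0.0097 and -0.13). PSMC4 read 2099 and 2027 on the siTTF-1 and control arrays of Lu139, and 2648 and 2344 in NCI-H209. PSMC3 had -0.08 and -0.09, while PSMC1 (0.08 and -0.05) and PSMC6 (-0.03 and 0.06) had opposite signs. The base also holds the scaffolds PSMD1 and PSMD2, which tether ubiquitin-binding factors, and the ubiquitin receptor PSMD4. PSMD1 read 1277 after siTTF-1 and 1383 in control Lu139 cells, against 2341 and 2700 in NCI-H209, changes of -0.11 and -0.20 (limma adjusted p = 0.382). Its dimmer probe set had 0.06 in Lu139. PSMD2 had -0.06 and -0.12, and PSMD4 0.02 and -0.06.

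In the lid, 4 of 6 genes were higher in both lines, against 37.7% of all genes. PSMD3 read 2607 after siTTF-1 and 2549 in control Lu139 cells (0.03), against 2947 and 2412 in NCI-H209 (0.29). PSMD6 (0.09 and 0.10), PSMD8 (0.04 and 0.14) and PSMD12 (0.01 and 0.15) were also higher in both. The dimmer probe set of PSMD12 had 0.07 and -0.14. PSMD11 had -0.02 and 0.18. PSMD14, the deubiquitinase of the lid, had -0.03 and -0.02. Among the assembly chaperones of the base, which leave before the particle is complete, PSMD9 had 0.08 and 0.23 and PSMD5 had 0.20 and 0.02. PSMD9 read 798 and 751 on the siTTF-1 and control arrays of Lu139, and 1541 and 1315 in NCI-H209. PSMD10, also known as gankyrin, had -0.02 and 0.08.

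The activators, which cap the core in place of the 19S particle, moved apart in NCI-H209. PSME1, an interferon-induced subunit of the 11S activator, read 969 after siTTF-1 and 922 in control Lu139 cells, against 2384 and 1837 in NCI-H209. That is 105% and 130% of control, or 0.07 and 0.37 (limma adjusted p = 0.342). PSME4, which encodes the nuclear activator PA200, read 840 and 890 on the siTTF-1 and control arrays of Lu139, against 878 and 1197 in NCI-H209. It was at 94.4% of control in Lu139 and 73.4% in NCI-H209 (-0.08 and -0.44; limma adjusted p = 0.316). Its 3 probe sets were lower in Lu139, but in NCI-H209 1 of them read 348 after siTTF-1 and 346 in control cells, so the probe sets disagreed there. PSME3, a nuclear activator with a single subunit type, had 0.02 and -0.08, and all 4 of its probe sets were higher in Lu139 and lower in NCI-H209.

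**Figure D2:**
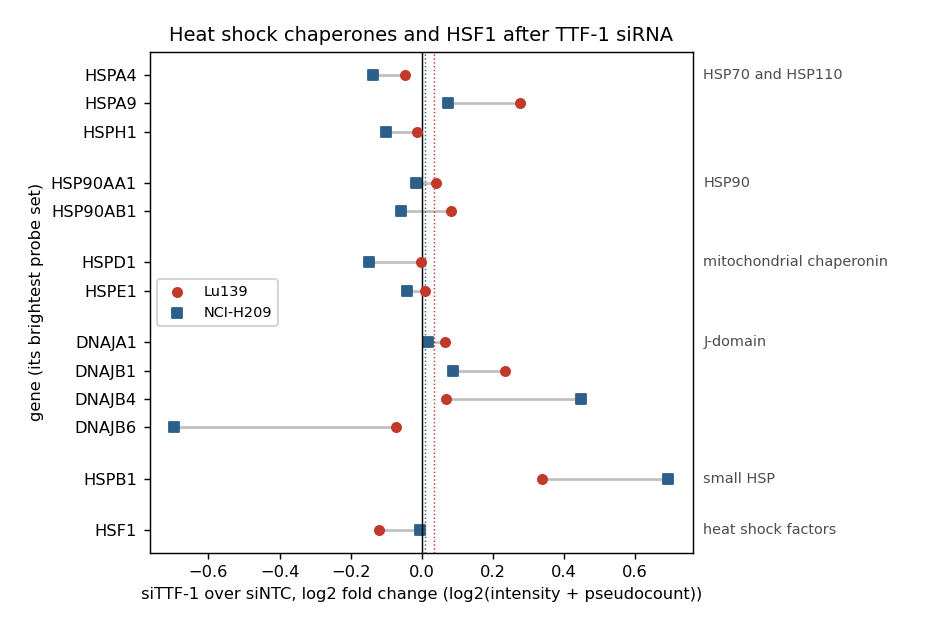
Log2 fold change of siTTF-1 over siNTC (horizontal axis) for the 12 chaperone genes above the expression limit and HSF1; red circles are Lu139, blue squares NCI-H209, 1 array per siRNA each, and dotted lines are the medians of all genes. HSPB1 lies furthest right, at 0.34 and 0.69, and DNAJB6 furthest left, at -0.07 and -0.70.

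The chaperones held the largest single changes. HSPB1 encodes the small heat shock protein HSP27, which holds unfolded proteins and binds actin. It read 431 after siTTF-1 and 337 in control Lu139 cells, against 1230 and 754 in NCI-H209. The siTTF-1 array was higher in each line, at 128% of control in Lu139 and 163% in NCI-H209. Averaged over the lines the log2 fold change was 0.52 (SD 0.25, n = 2), with a limma interval of 0.23 to 0.80 and an adjusted p of 0.143. HSPB1 was read by 1 probe set.

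The J-domain proteins, which deliver clients to HSP70 and start its ATP cycle, did not move together. DNAJB6, known for suppressing the aggregation of polyglutamine proteins, read 352 after siTTF-1 and 371 in control Lu139 cells, against 653 and 1070 in NCI-H209. It was at 94.9% of control in Lu139 and 61.1% in NCI-H209, so the decrease came mainly from 1 line (mean -0.38, SD 0.44, n = 2 lines; limma interval -0.75 to -0.02, adjusted p = 0.288). It had 1 probe set of its own, and 2 probe sets annotated with DNAJB6 and another symbol went the other way in NCI-H209, by 0.65 and 0.42. The direction for DNAJB6 therefore rests on 1 probe set. DNAJB4, another partner of HSP70, read 199.6 after siTTF-1 and 189 in control Lu139 cells, against 461 and 333 in NCI-H209. Its values of 0.07 and 0.45 were positive on both probe sets in both lines, with a limma adjusted p of 0.348. DNAJB1, the stress-inducible partner of HSP70 in disaggregation, read 951 after siTTF-1 and 806 in control Lu139 cells, against 1331 and 1251 in NCI-H209 (0.23 and 0.09; limma adjusted p = 0.43). DNAJA1 had 0.07 and 0.02 on its brightest probe set and 0.22 and 0.14 on its other.

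HSPA9 encodes mortalin, the HSP70 of mitochondria that drives protein import. It read 5020 after siTTF-1 and 4144 in control Lu139 cells, against 5133 and 4872 in NCI-H209. The siTTF-1 array was higher in both lines, by 0.28 and 0.08 (limma interval 0.0019 to 0.35, adjusted p = 0.298), and HSPA9 was the member with the second largest increase in Lu139. The third of its probe sets above the limit had 0.10 in Lu139 and -0.22 in NCI-H209. HSPA4 and HSPH1, nucleotide exchange factors of the HSP110 type, were lower in both lines, by small amounts. HSPA4 read 1795 after siTTF-1 and 1856 in control Lu139 cells, against 1655 and 1820 in NCI-H209 (-0.05 and -0.14), and HSPH1 had -0.01 and -0.10 on its brightest probe set.

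The HSP90 genes and the chaperonin stayed within 0.15 of 0 on their brightest probe sets. HSP90AA1, the inducible HSP90, read 15976 after siTTF-1 and 15530 in control Lu139 cells, against 19617 and 19852 in NCI-H209 (0.04 and -0.02). The constitutive HSP90AB1 had 0.08 and -0.06. HSPD1 read 11880 after siTTF-1 and 11907 in control Lu139 cells, against 10791 and 11972 in NCI-H209, or -0.0033 and -0.15. Its dimmer probe sets above the limit had 0.03 and -0.08, -0.11 and -0.49, and 0.18 and -0.18. HSPE1, across the stretch it shares with HSPD1, had 0.01 and -0.04. HSF1 read 228 after siTTF-1 and 250 in control Lu139 cells, against 293 and 294 in NCI-H209. Its values of -0.12 and -0.01 had a limma adjusted p of 0.783, and its 2 probe sets had opposite signs in both lines.

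**Figure D3:**
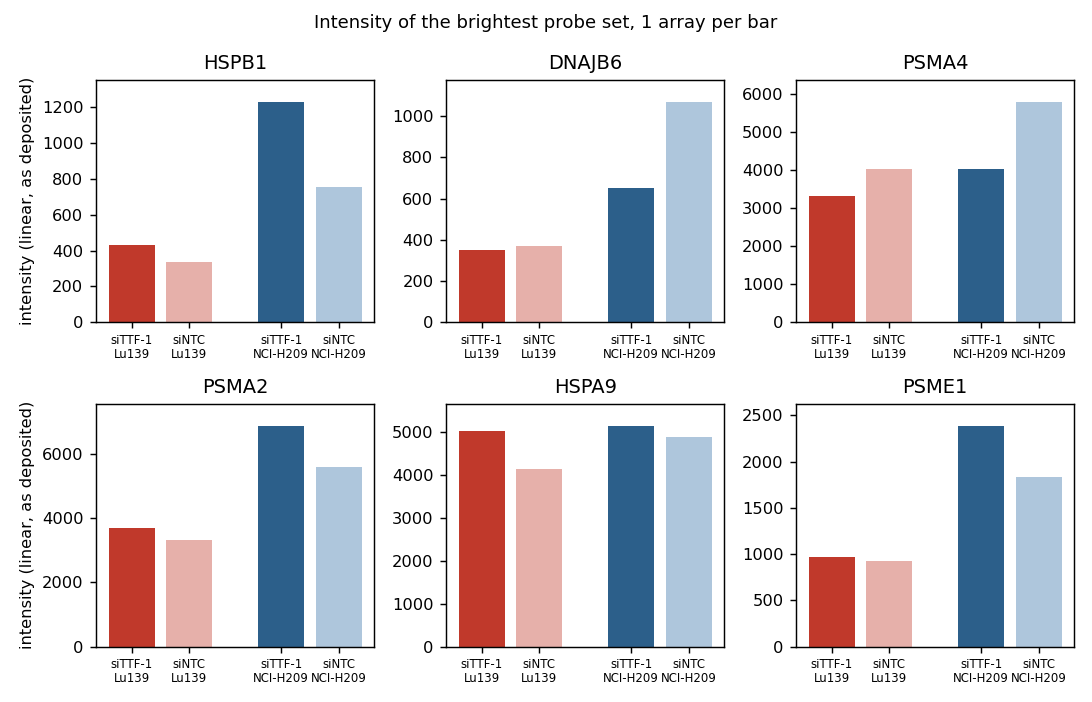
Intensities as deposited (vertical axes start at 0) of 6 members on the 4 arrays; each bar is 1 array, red for Lu139 and blue for NCI-H209, dark for siTTF-1 and pale for siNTC. HSPB1, PSMA2, HSPA9 and PSME1 are higher on the siTTF-1 array of each line, and DNAJB6 and PSMA4 are lower.

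The values across all probe sets are in the plot of each member probe set in both lines. HSPB1 is its outermost point to the right and DNAJB6 to the left. Of the 46 genes, 27 had at least 2 probe sets above the limit.

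**Figure D4:**
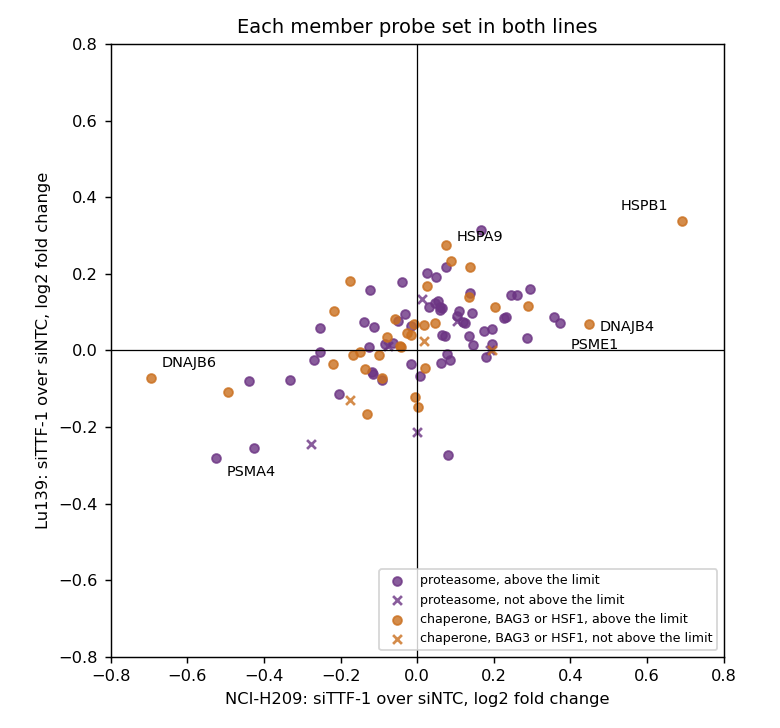
Log2 fold change of siTTF-1 over siNTC of each of the 100 member probe sets in Lu139 (vertical axis) and NCI-H209 (horizontal axis), on equal scales; purple marks are proteasome, orange marks chaperone probe sets, and crosses are probe sets not above the expression limit. HSPB1 (0.34 in Lu139, 0.69 in NCI-H209) and DNAJB6 (-0.07 and -0.70) are the outermost points along the NCI-H209 axis.

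Genes that work with these members were counted from lists of their pathway. Of 19 genes of proteasome assembly and regulation above the limit in both lines, 10 were higher in both and 2 were lower in both. Over all genes above that limit the shares were 37.7% and 27.5%. Of 20 tested, 0 passed limma at an adjusted p under 0.05, as did 0% of all genes. PAAF1, a factor that binds the proteasomal ATPases, read 403 after siTTF-1 and 611 in control Lu139 cells, against 504 and 1021 in NCI-H209. Its values of -0.58 and -0.99 (limma adjusted p = 0.105) were larger in size than those of any member. NGLY1 had 0.03 and -0.32, and ECPAS 0.0031 and -0.23. At the other end, PSMB10, a catalytic subunit of the immunoproteasome, had 0.30 and 0.44 (limma adjusted p = 0.184). NFE2L1, the transcription factor that activates proteasome genes when proteasome activity falls short, had 0.16 and 0.31 (limma adjusted p = 0.291). PSMG1, a chaperone of alpha ring assembly, had 0.26 and 0.16.

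Of 45 other chaperone genes, 21 were higher in both lines, against 37.7% of all genes, and 8 were lower in both, against 27.5%. Of the 45, 0 passed limma at an adjusted p under 0.05, as did 0% of all genes. PTGES3, which encodes the HSP90 co-chaperone p23, read 7490 after siTTF-1 and 10916 in control Lu139 cells, against 5815 and 11398 in NCI-H209. Its values of -0.54 and -0.97 had a limma adjusted p of 0.0713. DNAJC7 had -0.17 and -0.78, and DNAJC3 -0.15 and -0.40. HSPA6, an HSP70 that is silent in most cells until stress, read 274 after siTTF-1 and 144 in control Lu139 cells, against 58.5 and 48.8 in NCI-H209 (0.85 and 0.19; limma adjusted p = 0.2). SERPINH1, the collagen chaperone HSP47, had 0.48 and 0.43 (limma adjusted p = 0.143), and DNAJB9, a J-domain protein of the endoplasmic reticulum, had 0.03 and 0.76.

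Levels differed between the lines far more than between the siRNAs. In limma, 37 of 46 members were lower in Lu139 than in NCI-H209 at an adjusted p under 0.05, against 51.7% of all genes, and 2 were higher, against 18.7%. The median log2 difference of the proteasome genes, Lu139 over NCI-H209, was -0.48, against -0.28 over all genes. These differences depend on the scaling of the lines. Quantile normalization over the 4 arrays moved the median of all genes to 0.043 and that of the proteasome genes to -0.046. It gave 18 members lower and 12 higher, against 32.8% and 36.6% of all genes. Relative to the median of all genes, 29 of 46 members lay below it as deposited and 30 of 46 after that normalization. Under both scalings 18 of 46 members passed as lower, against 32.9% of all genes, and 2 as higher, against 18.8%. The share of lower members is near that background. Over all genes, 4775 were lower after quantile normalization and the same number under both scalings. Being lower under both scalings is therefore no stricter than being lower after quantile normalization. PSMB6, PSMC2, PSMD4 and PSMD11 passed as lower in one and as higher in the other, as did 0.289% of all genes. How the authors scaled the lines against each other is not known here, and exactly equal intensities occurred within each line but on 0 probe sets between them.

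**Figure D5:**
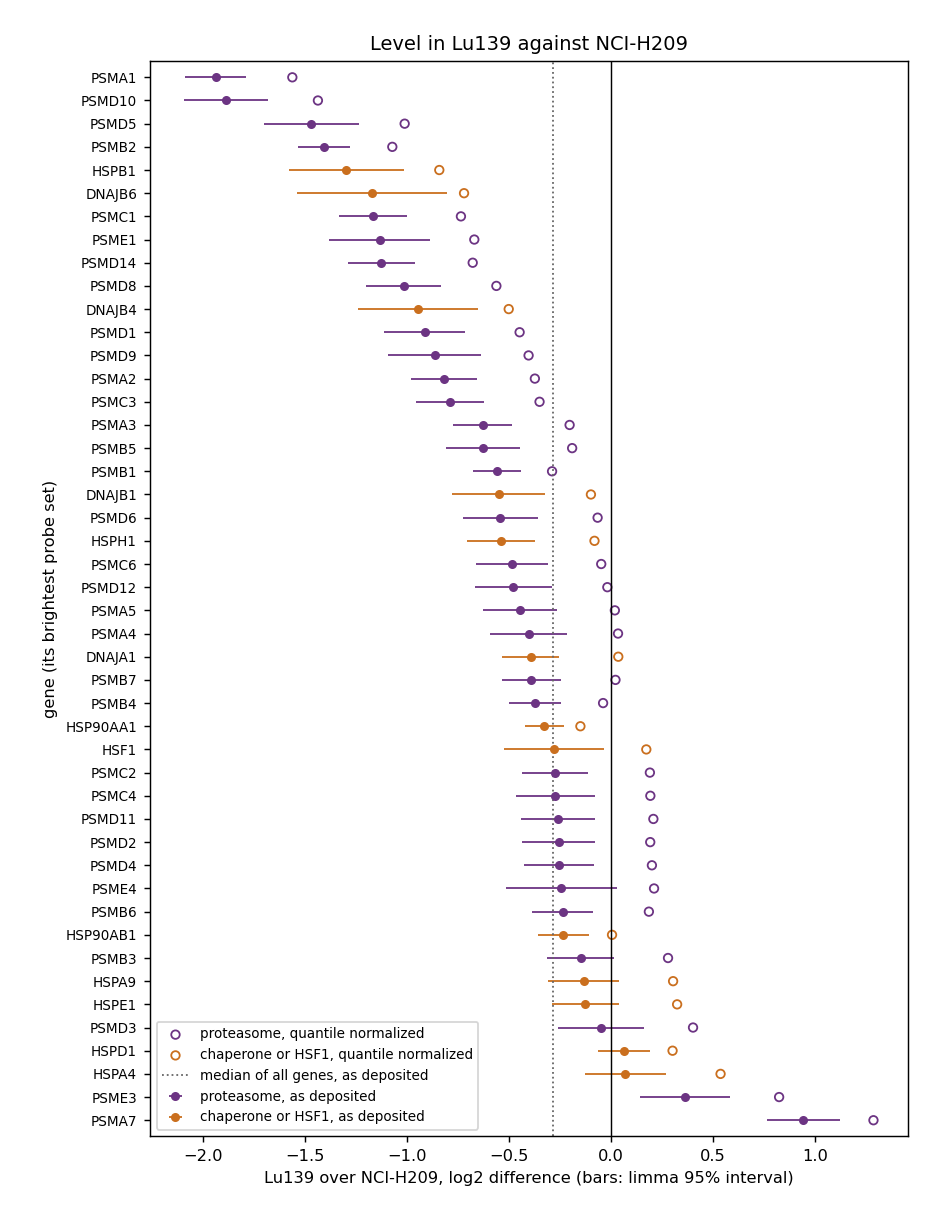
Log2 difference of Lu139 over NCI-H209 (horizontal axis) for the 46 members above the expression limit, in order of size; filled points with bars are the deposited values with the limma 95% interval over 4 arrays, open circles are values after quantile normalization over the 4 arrays, and the dotted line is the median of all genes. PSMA1 and PSMD10 lie near -1.9 and PSMA7 at 0.94, and the open circles lie to the right of most filled points.

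Under both scalings 14 of 33 proteasome genes were lower in Lu139, against 32.9% of all genes. They came from each part of the particle. PSMA1, of the alpha ring, read 2461 and 2300 on the siTTF-1 and control arrays of Lu139, and 9617 and 8714 on those of NCI-H209. Both arrays of Lu139 lay below both of NCI-H209, a log2 difference of -1.94 (limma interval -2.09 to -1.79, adjusted p = 6.7e-07), or -1.56 after quantile normalization over the 4 arrays, and all 3 of its probe sets were lower. PSMB2, of the beta ring, read 5009 and 4758 on the siTTF-1 and control arrays of Lu139, and 13519 and 12433 on those of NCI-H209 (-1.41; limma adjusted p = 1.17e-06). PSMD10 read 837 on the siTTF-1 and 852 on the control array of Lu139, and 3265 and 3077 in NCI-H209 (-1.88; limma adjusted p = 2.48e-06). PSMD5 read 670 on the siTTF-1 and 580 on the control array of Lu139, and 1771 and 1741 in NCI-H209 (-1.47; limma adjusted p = 1.24e-05). PSMD10 and PSMD5 both encode assembly chaperones of the base. PSMD9, the remaining one among the members, was also lower (-0.86, against 0.39 on its dimmer probe set). Further members on this side were the ATPase genes PSMC1 (-1.16) and PSMC3 (-0.79), the lid genes PSMD14 (-1.12) and PSMD8 (-1.02), PSMD1 (-0.91), PSME1 (-1.13), PSMA2 (-0.82), PSMA3 (-0.63) and PSMB1 (-0.56). After quantile normalization over the 4 arrays these further members ran from -0.73 (PSMC1) to -0.20 (PSMA3, limma adjusted p = 0.0197). PSMB2, PSMD10, PSMD5 and PSMD9 were then at -1.07, -1.43, -1.01 and -0.40.

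PSMA7 was the alpha ring gene with the opposite difference. It was higher in Lu139 by 0.94 (limma interval 0.77 to 1.12, adjusted p = 2.89e-05), on both probe sets, or 1.29 after quantile normalization over the 4 arrays. PSMA7 and PSMA1 therefore differed between the lines in opposite directions although their proteins sit in 1 ring in equal numbers. PSME3 read 1300 after siTTF-1 and 1285 in control Lu139 cells, against 970 and 1030 in NCI-H209. It was higher in Lu139 by 0.37 (limma adjusted p = 0.00967), on all 4 of its probe sets. PSMD3 had a difference of -0.05 with an interval of -0.26 to 0.16 as deposited, and 0.40 after quantile normalization over the 4 arrays.

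Of the chaperones, HSPB1 (-1.30; limma adjusted p = 5.99e-05), DNAJB6 (-1.17; limma adjusted p = 3.84e-04), DNAJB4 (-0.95; limma adjusted p = 3.68e-04) and HSP90AA1 (-0.32; limma adjusted p = 2.89e-04) were lower in Lu139 under both scalings. These are the values as deposited. After quantile normalization over the 4 arrays they were -0.84, -0.72, -0.50 and -0.15 (limma adjusted p = 3.25e-04, 0.00249, 0.00667 and 0.0112). Relative to the median of all genes, HSP90AA1 as deposited was at only -0.043. HSPB1, DNAJB6 and DNAJB4 were also the chaperones with the largest siTTF-1 changes, all in NCI-H209, where their intensities were higher. DNAJB6 had a difference of -0.86 on the siTTF-1 arrays and -1.48 on the siNTC arrays. The 2 probe sets that carry another symbol beside DNAJB6 were nearer between the lines on the siNTC arrays, at 1172 in Lu139 against 1161 in NCI-H209, and at 1465 against 1595. The mitochondrial chaperonin differed little as deposited, with 0.07 for HSPD1 (interval -0.06 to 0.19) and -0.12 for HSPE1 (interval -0.29 to 0.04). After quantile normalization over the 4 arrays the values were 0.30 and 0.33. HSPA4 had 0.07 on its brightest probe set but -1.03 on its dimmest, so its probe sets did not give 1 answer.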

How the data were processed

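Intensities on a linear scale were deposited by the authors, 1 column per array. Per the labels' protocols, total RNA was purified on columns and made into biotinylated cRNA. Affymetrix Expression Console was used per the submitters' processing notes, with version, algorithm, normalization and build not given in the sources used here. Exactly equal values were found on 2206 probe sets between the 2 arrays of Lu139 and 2416 in NCI-H209, against 0 between lines.

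Of 54675 probe sets, 41091 carried 1 symbol, 1801 several, 11721 none and 62 were controls. Symbols of all genes were updated by gene identifier (GRCh38.p14 table, 41037 matched). A gene was its brightest probe set (19775 genes). Values were log2(intensity + 18.7), the 25th percentile as pseudocount, and the expression limit was the 40th percentile of probe sets' mean log2. Within a line, with 1 array per group, changes have no test. Effects across lines were tested with limma 3.58.1 in R 4.3.3 (1 residual and 5.91 prior degrees of freedom, intensity trend, two-sided, Benjamini-Hochberg over 14547 genes). Nothing says that arrays are separate cultures, so p-values measure only their spread, possibly technical. Alternatives changed the pseudocount, expression limit, scaling, choice of probe sets, intensity trend, line term, and lines left out in turn.

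Genes named with values were those with the 6 highest and 6 lowest mean changes, any 1.5-fold change, an unadjusted p under 0.05, the 5 highest and 5 lowest line differences, and 1 of each role, plus the 3 highest and 3 lowest of each related list. A ranking by level was left out, because probe sets differ in brightness. The members and lists were chosen with earlier results of these data known. Figures used matplotlib 3.10.9.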

Additional observations from a re-analysis of the deposited data

Results flagged for a closer look

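A probe set whose annotation gives several symbols, 1 of them DNAJB6, was left out of every gene value. It stood out as a signal outside the values used above, with an intensity of 1296 after siTTF-1 and 1172 in control Lu139 cells (0.14), and 1839 and 1161 in NCI-H209 (0.65). Another probe set with that annotation read 1512 after siTTF-1 and 1465 in control Lu139 cells (0.04), and 2138 and 1595 in NCI-H209 (0.42). In both lines each went opposite to the probe set annotated with DNAJB6 alone, which had -0.07 in Lu139 and -0.70 in NCI-H209. They were chosen for mention after their values were seen, and which transcripts they read was not tested.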

How the results depend on the processing

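Of the recomputed list results, 71 stayed within their spread or 1.5 times their count. With 1 array per group and 2 lines, small changes are limited by precision. No member passed limma for siTTF-1 under any alternative fitted, although over all genes 6 were higher and 32 lower with the limit at the 60th percentile, 15 and 40 with quantile normalization over the 4 arrays, and 8 and 33 within each line, against 0 and 0 otherwise. The line term pairs the siTTF-1 and siNTC array of each line, and limma without it also called 0 members. No further replicate block could be fitted, as the labels give no replicate numbers. Quantile normalization moved the chaperone median in Lu139 to -0.0059 (over the 4 arrays) and -0.0071 (within each line), and the proteasome line difference to -0.046 (over the 4 arrays). The mean of all probe sets gave -0.402 for that line difference and 0.043 for the proteasome median in NCI-H209. A limma fit on all 32746 probe sets called 77 of 91 member probe sets between the lines, against 39 of 46 genes.

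Of the recomputed siTTF-1 changes of single genes, 281 kept their direction and 7 reversed. Without probe sets ending _x_at or _s_at, HSPA9 had -0.057 and PSMB2 -0.089. With the mean of all probe sets, PSME3 had 0.0064 and HSF1 0.048. Leaving out 1 line gave a range of -0.024 to 0.085 for PSMD10, -0.085 to 0.017 for PSME3 and -0.058 to 0.082 for HSP90AB1. Of the recomputed line differences, an addition made after seeing the data, 84 were unaltered in call and direction, 2 newly passed and 4 reversed. These were PSMD3 at 0.404 with quantile normalization over the 4 arrays, HSPD1 at -0.0039 and HSPA4 at -0.385 with the mean of all probe sets, and HSPA4 at -1.03 without _x_at and _s_at probe sets. The causes were not tested.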
